A study of Homo sapiens with 8 samples.

Results

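The 8 libraries of a CRISPR interference experiment in K562 cells fell into 4 and 4 along a line that cut across IRF2 status. The libraries with the guides sgAAVS1 and sg1-IRF2 lay on one side, and those of untransduced cells and of cells with sg2-IRF2 on the other. The grouping was taken from the expression values themselves, so differences across it are given below as descriptions, with standard errors and without tests. All 8 of 8 libraries enter it, 4 a side. Of 35805 genes in the deposited table, the 14665 whose mean log2 was 0 or more were compared. At that limit AJ003147.11 was just inside, with 21 reads over the sgAAVS1 and sg1-IRF2 libraries and 24 over the untransduced and sg2-IRF2 libraries. RP11-677M14.7 was just outside, with 18 and 29 reads over the same sides.

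K562 is an erythroleukaemic line grown out of chronic myeloid leukaemia. All cells, the controls included, carried dCas9-KRAB, in which a Cas9 that cannot cut is joined to the KRAB repressor. The groups were cells transduced with sgAAVS1, a control guide to the AAVS1 site, cells with sg1-IRF2 or with sg2-IRF2, which are 2 guides to the transcription factor gene IRF2, and untransduced cells, with 2 libraries each. RNA of guide-carrying cells was taken 7 days after transduction, and the labels give untransduced cells no such day. Nothing in the labels says that replicates were separate cultures, so p-values measure only the spread between libraries. The labels give no harvest day, flask or sequencing batch, and a batch and the split therefore cannot be told apart.

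Each side holds 1 control and 1 IRF2 guide, which gives 2 pairs that share no library. The control pair is sgAAVS1 minus untransduced, and the guide pair is sg1-IRF2 minus sg2-IRF2. The split difference of a gene is the mean of both pair differences on the log2 scale. A positive value means higher with sgAAVS1 and sg1-IRF2. The guide pair minus the control pair, and the IRF2 guides against both controls, are separate directions that the grouping did not use, and these were tested.

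Cells short of amino acids, or under several other stresses, activate the kinase GCN2 or its relatives, which favours translation of the transcription factor ATF4. ATF4 raises genes for amino acid uptake, serine and glycine synthesis and glutathione turnover. When oxygen is short, hypoxia-inducible factors escape hydroxylation by EGLN enzymes and raise genes for glucose uptake, glycolysis, mitophagy and pH control. Growth factors and serum are known to raise immediate early genes and MYC.

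The recovered reads over listed genes numbered 5248359 to 6738348 with sgAAVS1 and sg1-IRF2, and 6122710 to 6440681 in untransduced cells and with sg2-IRF2, so the sides overlapped in depth. Mitochondrially encoded genes took 0.185% to 0.217% of reads in the sgAAVS1 and sg1-IRF2 libraries and 0.183% to 0.205% in the untransduced and sg2-IRF2 libraries. IRF2 itself had 5.43 and 5.61 with sgAAVS1 and -0.32 and 0.50 with sg1-IRF2, against 5.62 and 5.58 in untransduced cells and 1.96 and 1.99 with sg2-IRF2. It was thus low in all 4 libraries with an IRF2 guide, and lowest with sg1-IRF2, where 4 and 8 reads remained. PPP1R12C, the gene that holds the AAVS1 site, had 6.36 and 6.15 with sgAAVS1, against 6.89 to 7.09 over the other 6 libraries, so it was low in the sgAAVS1 libraries alone. The defining markers GATA1, KLF1 and HBG1 were present at 7.07, 6.59 and 6.45 on the mean log2 scale. PF4, ELANE and MS4A1 had no reads in any library, though other members of their lists were read. ITGA2B of the megakaryocyte list stood at 6.52, SPI1 of the myeloid list at 6.47 and PTPRC of the lymphoid list at 6.58. KRT8 of the adherent line list stood at 8.08. Reads were absent for 8 of 18 megakaryocyte, 4 of 18 myeloid, 5 of 15 lymphoid and 4 of 14 adherent line genes.

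Agreement between libraries did not simply follow the labels. The mean chi-square per gene of recovered reads, where counting noise alone gives 1, was taken over genes with at least 20 reads in a pair of libraries. It was 1.69 between the 2 sgAAVS1 libraries, 0.777 between those with sg1-IRF2, 0.818 between untransduced libraries and 0.644 between those with sg2-IRF2. Values below 1 mean that the libraries of those 3 groups differed by less than counting noise. Whether each pair is 1 sample sequenced again was not tested. All were kept as replicates, and p-values and standard errors may be too small for that reason. The first sgAAVS1 library stood at 1.12 from the first sg1-IRF2 library, and the second sgAAVS1 library at 1.24 from the second sg1-IRF2 library, both closer than the sgAAVS1 libraries were to each other. Libraries of these groups with different numbers stood at 1.58 and 1.74, within the range across the split. The 16 pairs of libraries across the split ran from 1.28 to 2.42.

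The split took about as much of the variation as the IRF2 guides did. Among 12500 genes with a mean log2 of at least 2, it held 26.5% of the sum of squares between libraries with medians aligned. The IRF2 guides against controls held 27.2%, the guide pair minus the control pair 10.6%, and differences between the 2 libraries of a group 35.8%. Without alignment of medians the shares were 29.9% for the split and 24.6% for the IRF2 guides. On principal components of the deposited values, the first component (31% of variance) put the 4 sgAAVS1 and sg1-IRF2 libraries on one side and the other 4 on the other. Once each library was centred, the first component (28.9%) instead separated sg1-IRF2 from untransduced libraries and the second (25.2%) separated sgAAVS1 from sg2-IRF2 libraries. The description of the split as the first component therefore held for the deposited scale and not for centred libraries.

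**Figure D1:**
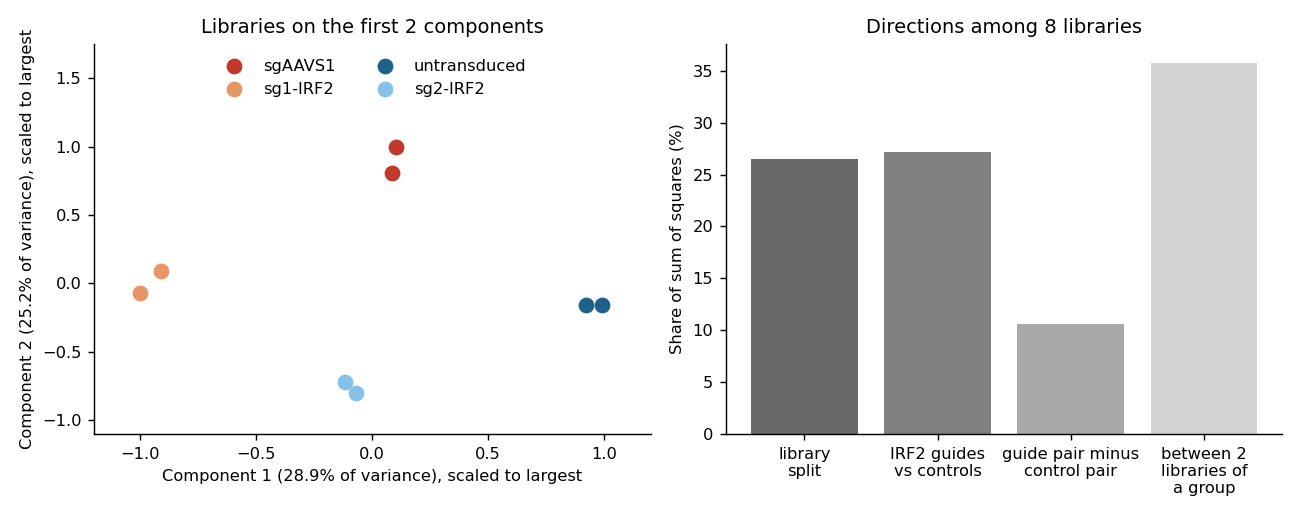
Left, position of each library on the first 2 principal components of 12500 genes, libraries centred and each axis scaled to its largest value, coloured by group. Right, share of the sum of squares (%) in each direction among the 8 libraries, where the split held 26.5%.

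Of the genes tested, 1079 (7.36%) were higher in all 4 sgAAVS1 and sg1-IRF2 libraries than in any of the 4 untransduced and sg2-IRF2 libraries, and 1047 (7.14%) were lower without overlap. Most of these differences were small. Only 79 genes (0.539%) were higher and 89 (0.607%) lower by at least 0.5 on the log2 scale, which is 1.41-fold. Without alignment of medians the median of all genes tested was 0.07, these counts were 116 and 56, and those without overlap at any size were 2405 higher and 289 lower (89.3% higher, against 50.8% with alignment). The tallies without overlap given for each list below therefore depend on the alignment as well, and many are given with both. Each list tally stands against 7.36% higher and 7.14% lower over all genes tested. The differences of at least 0.5 were mostly in low genes. Their median mean log2 was 1.56 among the 79 and 1.97 among the 89, against 5.6 over all genes tested. The pair differences correlated across genes at 0.24 over all 14665 and at 0.523 over the 10342 genes with a mean log2 of at least 4. The pairs share no library, but the sides were picked from these values, and genes are not independent replicates.

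The IRF2 comparison was a separate direction. By the limma moderated test, with Benjamini-Hochberg adjustment over all genes tested, 209 genes (1.43%) differed between IRF2 guides and both controls at adjusted p under 0.05, 50 higher (0.341%) and 159 lower (1.08%). At an unadjusted p under 0.05 the count was 1333. A gene low with sgAAVS1 alone also enters this comparison as higher with IRF2 guides, so a higher call need not follow IRF2. Each side holds 1 group with an IRF2 guide, so a gene with a large IRF2 difference can hardly be without overlap between the sides, and genes shared by both calls are not counted. The guide pair and the control pair differed in 19 genes (0.13%) by the same test, 13 higher (0.0886%) and 6 lower (0.0409%), which are described in the closing section.

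**Figure D2:**
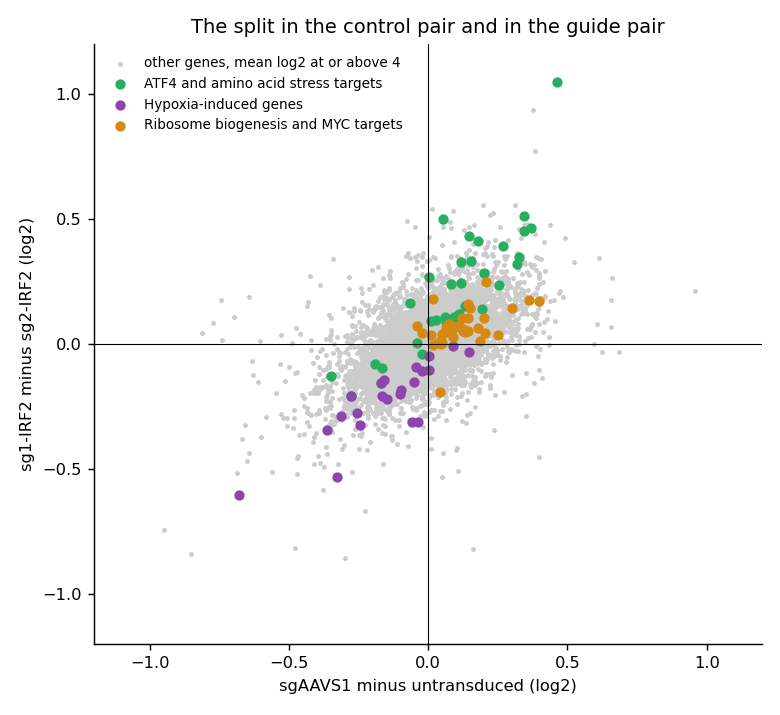
The control pair (x axis, sgAAVS1 minus untransduced, log2) against the guide pair (y axis, sg1-IRF2 minus sg2-IRF2, log2) for 10342 genes with a mean log2 of at least 4, of which 6 lie outside the axes. Most members of the ATF4 list and the ribosome biogenesis list lie above 0 on both axes and most hypoxia-induced genes below 0 on both.

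The gene that led the higher side was CHAC1, which degrades glutathione and is an ATF4 target. CHAC1 had log2 values of 4.15 and 4.50 with sgAAVS1 and 4.41 and 4.56 with sg1-IRF2, against 3.78 and 3.94 in untransduced cells and 3.58 and 3.30 with sg2-IRF2. All 4 sgAAVS1 and sg1-IRF2 libraries were above all others, by 0.75 ± 0.10 (SE), with 0.46 in the control pair and 1.05 in the guide pair. SLC6A9, a glycine transporter, had 5.12 and 5.30 with sgAAVS1 and 5.51 and 5.48 with sg1-IRF2, against 4.87 and 4.78 in untransduced cells and 4.80 and 4.65 with sg2-IRF2. Its difference was 0.58 ± 0.06, without overlap. SLC1A4, a transporter of alanine, serine and cysteine, had 6.50 and 6.75 with sgAAVS1 and 6.73 and 6.80 with sg1-IRF2, against 6.26 and 6.26 in untransduced cells and 6.24 and 6.36 with sg2-IRF2, a difference of 0.42 ± 0.05. G0S2, an inhibitor of the lipase ATGL, differed by 0.66 ± 0.10. NCOA5, a nuclear receptor coactivator, differed by 0.42 ± 0.06, and ITPR2, a calcium release channel of the ER, by 0.41 ± 0.11. ATF5, a transcription factor induced with ATF4, had 6.37 and 6.35 with sgAAVS1 and 6.63 and 6.55 with sg1-IRF2, against 6.05 and 5.98 in untransduced cells and 6.16 and 6.11 with sg2-IRF2. It differed by 0.40 ± 0.04 across the split and was also higher with IRF2 guides than with controls (0.17, adjusted p = 0.0359, limma). NEB, ZNF43, C19orf57, C14orf142 and RP1-228H13.5 complete the 12 leaders on that side, at 0.37 to 0.46.

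On the lower side CAPN5, a calpain protease, had 4.84 and 4.98 with sgAAVS1 and 4.65 and 4.92 with sg1-IRF2, against 5.77 and 5.76 in untransduced cells and 5.67 and 5.57 with sg2-IRF2. The libraries were apart by -0.85 ± 0.06, with -0.85 and -0.84 in the control pair and the guide pair. SYT11, a synaptotagmin of vesicle traffic, had 4.06 and 3.98 with sgAAVS1 and 3.73 and 4.14 with sg1-IRF2, against 4.87 and 5.07 in untransduced cells and 4.67 and 4.69 with sg2-IRF2, a difference of -0.85 ± 0.09. KIT, the receptor of stem cell factor, had 4.40 and 4.48 with sgAAVS1 and 4.50 and 4.62 with sg1-IRF2, against 5.19 and 5.07 in untransduced cells and 5.07 and 5.09 with sg2-IRF2. Both pairs showed it, at -0.69 in the control pair and -0.52 in the guide pair. Differences of -0.56 ± 0.04 were seen for CREBRF, a regulator of CREB3 in the stress response, -0.46 ± 0.07 for SGK1, a serum and glucocorticoid induced kinase, and -0.54 ± 0.09 for PIK3IP1, an inhibitor of PI3 kinase. MAFF, a small MAF transcription factor, differed by -0.54 ± 0.07, AQP10, an aquaglyceroporin, by -0.50 ± 0.06, TMEM116 by -0.46 ± 0.04 and RP13-20L14.10 by -0.65 ± 0.09. PNCK, a calmodulin-dependent kinase, had 5.48 and 5.23 with sgAAVS1 and 6.34 and 6.22 with sg1-IRF2, against 6.71 and 6.73 in untransduced cells and 6.65 and 6.79 with sg2-IRF2. It was low mainly in the sgAAVS1 libraries, and its pair differences of -1.36 for the controls and -0.44 for the guides differed (adjusted p = 9.89e-05, limma).

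**Figure D3:**
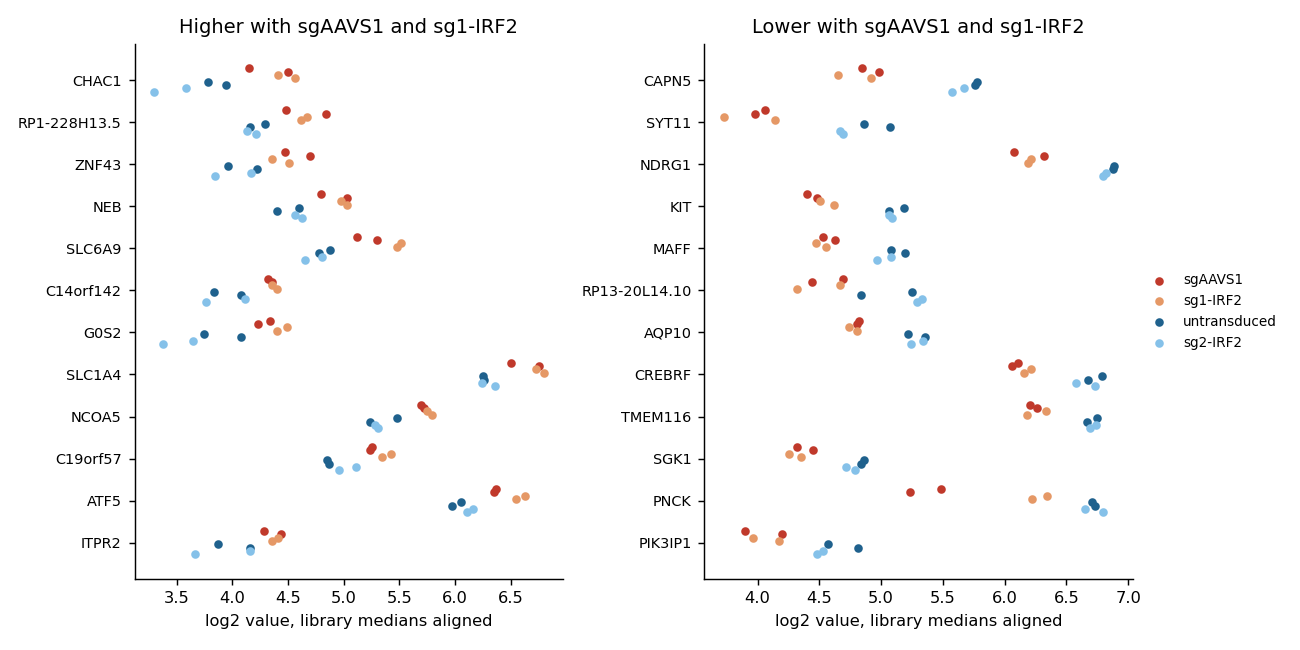
log2 values, with library medians aligned, of the 12 leading genes on each side of the split, 1 point a library, coloured by group. In each gene shown the 4 sgAAVS1 and sg1-IRF2 libraries do not overlap the 4 untransduced and sg2-IRF2 libraries.

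Genes of the ATF4 and amino acid stress response were higher with sgAAVS1 and sg1-IRF2. Of 40 listed genes 36 were tested, of which 15 were higher without overlap and 2 lower, against 7.36% and 7.14% of all genes, and 29 of 36 had a positive difference. On unaligned values 19 were higher and 0 lower. The list median was 0.15, against 0.00 over all genes tested, with 0.10 in the control pair and 0.20 in the guide pair. By library, the median of log2 value minus gene mean was 0.08 and -0.01 with sgAAVS1 and 0.13 and 0.07 with sg1-IRF2, against -0.09 and -0.05 in untransduced cells and -0.08 and -0.05 with sg2-IRF2. The second sgAAVS1 library was the lowest of its side, at -0.01, and still above the untransduced and sg2-IRF2 libraries.

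Members for serine synthesis and amino acid uptake are given next. PSAT1, which makes phosphoserine, had 6.70 and 6.64 with sgAAVS1 and 6.84 and 6.80 with sg1-IRF2, against 6.41 and 6.39 in untransduced cells and 6.43 and 6.42 with sg2-IRF2, a difference of 0.33 ± 0.04. PHGDH and PSPH, the enzymes before and after it, differed by 0.24 ± 0.04 and 0.34 ± 0.07. SLC7A5, the light chain of the large neutral amino acid transporter, had 8.19 and 8.14 with sgAAVS1 and 8.25 and 8.19 with sg1-IRF2, against 7.85 and 7.84 in untransduced cells and 7.92 and 7.88 with sg2-IRF2, so each of the 4 sgAAVS1 and sg1-IRF2 libraries exceeded the others. SLC7A1, the cationic amino acid transporter, differed by 0.25 ± 0.03, and SLC7A11, the cystine importer, by 0.18 ± 0.03. The mitochondrial enzymes PCK2, ALDH1L2 and GPT2 differed by 0.30, 0.29 and 0.24. STC2, a secreted glycoprotein, differed by 0.43 ± 0.06.

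Other members of the list did not follow. ATF4 mRNA had 7.53 and 7.30 with sgAAVS1 and 7.52 and 7.42 with sg1-IRF2, against 7.43 and 7.38 in untransduced cells and 7.36 and 7.40 with sg2-IRF2, overlapping between sides, with a difference of 0.05 ± 0.04. ATF4 is known to be controlled largely in translation, which was not measured. ASNS, asparagine synthetase, and TRIB3, a pseudokinase, overlapped, at 0.14 and 0.16. DDIT3, the transcription factor CHOP, was lower without overlap at -0.14 ± 0.05, as was SLC3A2, the heavy chain partner of SLC7A5, at -0.13 ± 0.04. ATF3, also an immediate early gene, was -0.24 ± 0.05, with overlap between sides. It had 5.79 and 5.81 with sgAAVS1 and 5.68 and 5.70 with sg1-IRF2. In untransduced cells it had 6.20 and 6.10, and with sg2-IRF2 5.79 and 5.85, so it was high in untransduced cells alone. ATF3 was also called lower with IRF2 guides than with controls (-0.22, adjusted p = 0.0125, limma). VEGFA, which is on the hypoxia list too, was -0.24 ± 0.04, again with overlap. It was called higher with IRF2 guides than with controls (0.20, adjusted p = 0.0237, limma). The cytosolic aminoacyl-tRNA synthetases, of which many are ATF4 targets, showed a smaller median of 0.05, with 3 of 20 higher without overlap and 0 lower.

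The promoters of CHAC1 and SLC7A1 are shown because they were the members without overlap whose promoter window holds the letters of the ATF4 composite element, TGATGNAA, on either strand. The windows run from 250 bases before to 50 bases after the start of the gene, read 5′ to 3′ along the gene's strand, from RefSeq on GRCh38.p14, at chr15:40953221-40953520 on the plus strand and chr13:29595639-29595938 on the minus strand. Capitals mark the match.
CHAC1: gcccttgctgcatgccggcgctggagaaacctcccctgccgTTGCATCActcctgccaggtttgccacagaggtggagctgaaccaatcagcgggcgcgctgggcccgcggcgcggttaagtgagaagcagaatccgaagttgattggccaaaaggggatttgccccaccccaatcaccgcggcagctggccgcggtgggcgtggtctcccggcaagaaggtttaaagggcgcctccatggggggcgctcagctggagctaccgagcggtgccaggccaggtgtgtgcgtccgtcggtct
SLC7A1: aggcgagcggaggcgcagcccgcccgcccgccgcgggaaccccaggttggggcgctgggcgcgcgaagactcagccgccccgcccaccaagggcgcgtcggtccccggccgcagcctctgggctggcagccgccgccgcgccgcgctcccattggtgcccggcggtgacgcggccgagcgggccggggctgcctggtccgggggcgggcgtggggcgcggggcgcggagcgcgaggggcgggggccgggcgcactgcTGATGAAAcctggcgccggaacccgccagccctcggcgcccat
Of the 36 tested members 28 had a promoter in the table, and 5 of these (17.9%) held the letters, against 3.67% of all 27305 promoters. Both the motif and the promoters to print were chosen after the values were seen. Members with a match had a median split difference of 0.142, and the 23 members without one 0.136.

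Hypoxia-induced genes were lower with sgAAVS1 and sg1-IRF2. Of 28 listed genes 25 were tested, of which 13 were lower without overlap and 0 higher, against 7.14% and 7.36% of all genes. A negative difference was seen in 23 of 25. On unaligned values 9 were lower and 1 higher. The list median was -0.18, with -0.15 in the control pair and -0.20 in the guide pair. By library, the median of log2 value minus gene mean was -0.07 and -0.12 with sgAAVS1 and -0.05 and -0.11 with sg1-IRF2, against 0.03 and 0.06 in untransduced cells and 0.12 and 0.14 with sg2-IRF2. All 4 sgAAVS1 and sg1-IRF2 libraries were below 0, and all 4 others above it, with those of sg2-IRF2 above the untransduced ones.

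NDRG1, a stress-responsive gene strongly induced by hypoxia, had 6.07 and 6.32 with sgAAVS1 and 6.22 and 6.19 with sg1-IRF2, against 6.88 and 6.87 in untransduced cells and 6.82 and 6.79 with sg2-IRF2. The sides were apart by -0.64 ± 0.05, with -0.68 in the control pair and -0.60 in the guide pair. CA9, a surface carbonic anhydrase that regulates pH, had 4.38 and 4.30 with sgAAVS1 and 4.16 and 3.99 with sg1-IRF2, against 4.53 and 4.79 in untransduced cells and 4.63 and 4.58 with sg2-IRF2, a difference of -0.43 ± 0.08. ADM, the vasodilator peptide adrenomedullin, differed by -1.30 ± 0.22 at a low level of 1.91 on the mean log2 scale. EGLN3, an oxygen-sensing hydroxylase that is itself induced by hypoxia, had 6.49 and 6.54 with sgAAVS1 and 6.52 and 6.60 with sg1-IRF2, against 6.90 and 6.85 in untransduced cells and 6.86 and 6.96 with sg2-IRF2, so all 4 sgAAVS1 and sg1-IRF2 libraries were lower. MXI1, a MYC antagonist, differed by -0.30 ± 0.04, and KDM3A, a histone demethylase, by -0.27 ± 0.03. The mitophagy receptors BNIP3 and BNIP3L differed by -0.29 ± 0.04 and -0.16 ± 0.03. P4HA1, a collagen prolyl hydroxylase, was lower by -0.19 ± 0.03, and SLC2A3, a glucose transporter, by -0.18 ± 0.03. Members that overlapped included VEGFA, the vascular growth factor, PDK1, which inhibits pyruvate dehydrogenase, at -0.18, SLC2A1, the main glucose transporter, at 0.04, PFKFB3, a glycolytic regulator, at 0.06, and EGLN1, the main oxygen sensor, at -0.05.

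Glycolysis enzymes had a list median of -0.05, turning to 0.014 without alignment of medians, with 3 of 17 lower without overlap and 0 higher. ENO2, the neuronal enolase, had 7.12 and 6.98 with sgAAVS1 and 7.07 and 7.04 with sg1-IRF2, against 7.30 and 7.32 in untransduced cells and 7.38 and 7.34 with sg2-IRF2, a difference of -0.28 ± 0.04. HK2, the inducible hexokinase, differed by -0.25 ± 0.03, with -0.13 in the control pair and -0.37 in the guide pair. PFKM differed by -0.10 ± 0.04. The abundant isoforms HK1 and ENO1 overlapped, at 0.02 and -0.02, as did PKM at -0.15.

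The promoters of CA9, BNIP3 and P4HA1 are shown on the same terms, as the members lower without overlap whose window holds the core of the hypoxia response element, ACGTG, on either strand. They lie at chr9:35673678-35673977 on the plus strand, chr10:131981874-131982173 on the minus strand and chr10:73096817-73097116 on the minus strand, again from RefSeq on GRCh38.p14. Capitals mark the matches, and in BNIP3 a match on each strand overlaps to give an E-box, CACGTG.
CA9: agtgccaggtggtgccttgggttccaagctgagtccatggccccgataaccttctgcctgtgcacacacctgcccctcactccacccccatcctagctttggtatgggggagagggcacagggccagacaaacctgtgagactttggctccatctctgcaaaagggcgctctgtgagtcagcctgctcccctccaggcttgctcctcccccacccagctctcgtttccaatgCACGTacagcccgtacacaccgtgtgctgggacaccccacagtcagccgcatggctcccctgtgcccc
BNIP3: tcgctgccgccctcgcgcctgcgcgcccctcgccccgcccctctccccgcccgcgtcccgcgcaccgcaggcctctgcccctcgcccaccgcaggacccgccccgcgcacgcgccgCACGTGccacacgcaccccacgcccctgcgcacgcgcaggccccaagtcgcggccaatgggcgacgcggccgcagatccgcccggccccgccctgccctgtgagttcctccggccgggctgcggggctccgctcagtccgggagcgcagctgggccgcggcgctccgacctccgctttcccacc
P4HA1: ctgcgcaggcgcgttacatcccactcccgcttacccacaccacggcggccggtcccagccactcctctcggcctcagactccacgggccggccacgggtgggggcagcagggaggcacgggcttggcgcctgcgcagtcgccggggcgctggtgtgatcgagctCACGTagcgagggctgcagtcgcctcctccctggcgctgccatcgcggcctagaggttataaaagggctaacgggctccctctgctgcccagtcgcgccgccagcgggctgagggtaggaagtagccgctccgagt
Of the 25 tested members 19 had a promoter in the table, and 10 of these (52.6%) held the letters, against 21.6% of all promoters. Members with a match had a median split difference of -0.08 and the 9 without one -0.18.

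**Figure D4:**
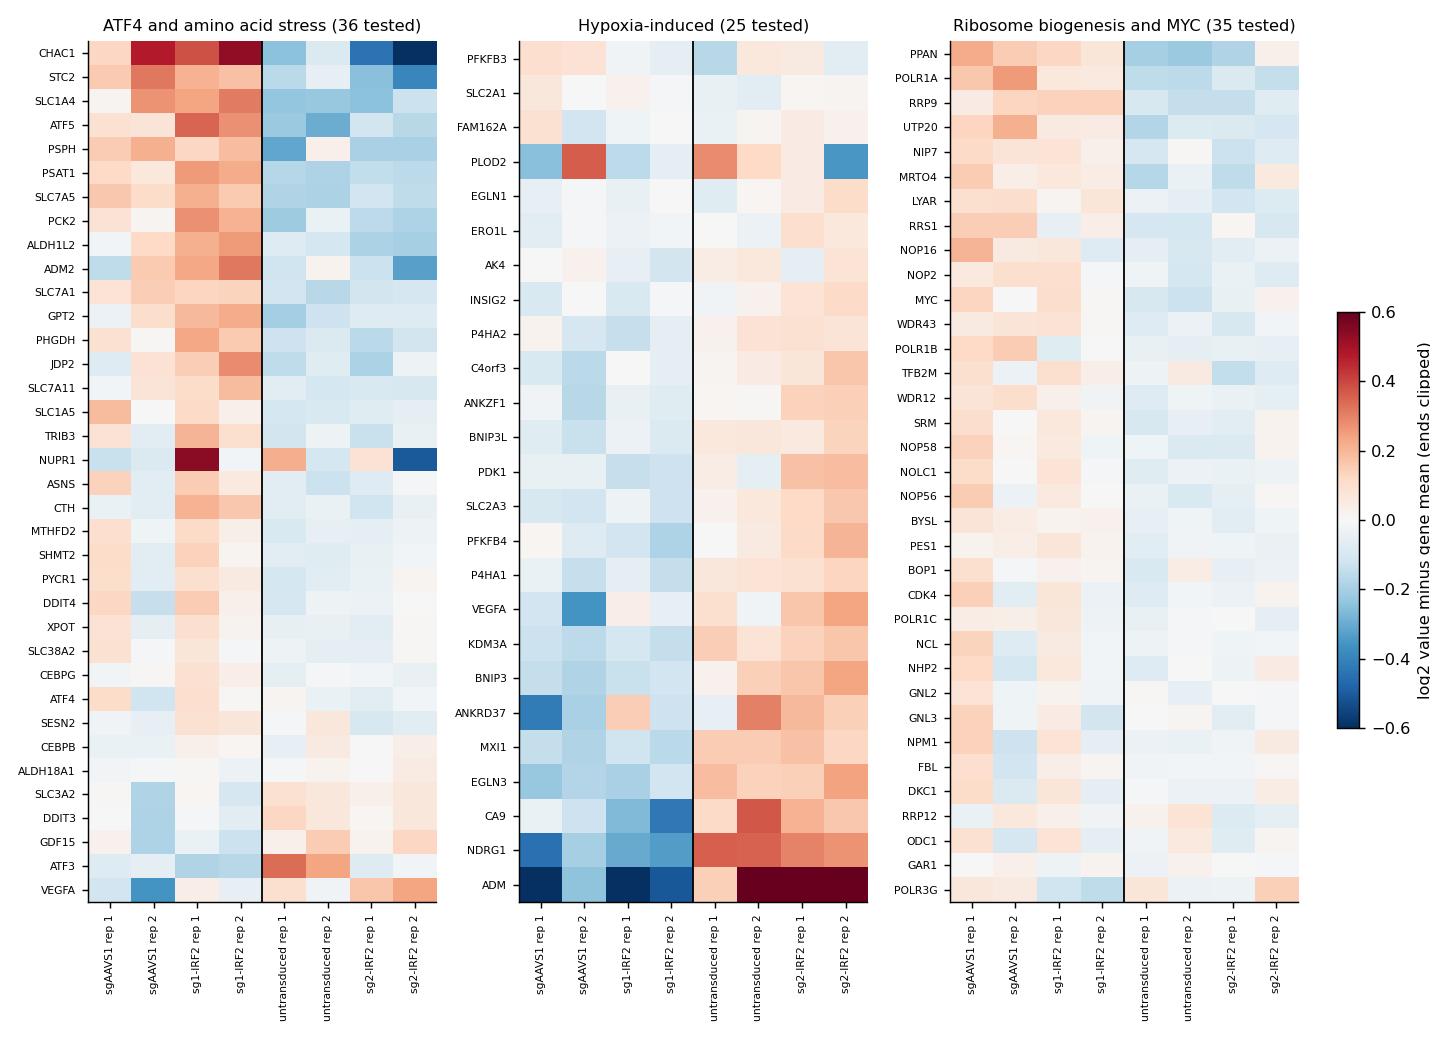
log2 value minus the gene's mean over 8 libraries (colour, clipped at the ends of the scale) for each tested member of the ATF4, hypoxia and ribosome biogenesis lists, with the sgAAVS1 and sg1-IRF2 libraries left of the line and the untransduced and sg2-IRF2 libraries right of it. Members are ordered by split difference, led by CHAC1, PFKFB3 and PPAN and ending with VEGFA, ADM and POLR3G.

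Growth-related lists were higher with sgAAVS1 and sg1-IRF2 by small amounts. In ribosome biogenesis and MYC targets, 12 of 35 were higher without overlap, 0 lower, and 34 of 35 had a positive difference (21 higher and 0 lower on unaligned values), with a median of 0.09. PPAN, a large-subunit assembly factor, had 6.30 and 6.23 with sgAAVS1 and 6.20 and 6.15 with sg1-IRF2, against 5.88 and 5.85 in untransduced cells and 5.90 and 6.11 with sg2-IRF2, a difference of 0.29 ± 0.05. POLR1A, the largest subunit of RNA polymerase I, differed by 0.27 ± 0.03. RRP9 and UTP20, which process pre-ribosomal RNA, differed by 0.23 ± 0.06 and 0.22 ± 0.04, while the abundant nucleolar proteins NCL and NPM1 overlapped, at 0.04 and 0.02. MYC had 7.72 and 7.59 with sgAAVS1 and 7.70 and 7.59 with sg1-IRF2, against 7.49 and 7.46 in untransduced cells and 7.55 and 7.61 with sg2-IRF2, with a difference of 0.12 ± 0.04 and overlap between sides. Cytosolic ribosomal protein genes had a median of -0.02, turning to 0.051 without alignment of medians, with 1 of 84 higher and 3 lower without overlap.

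Nucleotide synthesis and DNA replication genes were also higher with sgAAVS1 and sg1-IRF2 by small amounts. In purine, pyrimidine and folate synthesis 4 of 22 were higher without overlap and 0 lower (12 and 0 on unaligned values, 9 and 0 after quantile normalization), led by PFAS, a purine synthesis enzyme, at 0.24 ± 0.04 and CTPS1, which makes CTP, at 0.16 ± 0.04. In DNA replication 9 of 44 were higher, 0 lower, and 40 of 44 were positive (17 higher and 0 lower on unaligned values), with a median of 0.07. The GINS helicase subunits GINS3 and GINS4 differed by 0.22 ± 0.05 and 0.17 ± 0.05, UHRF1, which maintains methylation at the fork, by 0.16 ± 0.03, POLA1, the catalytic subunit of polymerase alpha, by 0.14 ± 0.04, and the highly read MCM4 and MCM7 overlapped, at 0.07 and 0.09. Of 51 clustered histone genes 47 had a positive difference, with a median of 0.09, but only 2 were without overlap. Mitosis genes had a median of -0.01, turning to 0.056 without alignment of medians. Without overlap 3 of 44 were higher and 3 lower, close to the 7.36% and 7.14% of all genes. ASPM, a spindle pole protein, was at 0.17 ± 0.03, while KIF20A and NEK2 were at -0.11 ± 0.04 and -0.10 ± 0.04. By library, the DNA replication median was 0.09 and -0.02 in the 2 sgAAVS1 libraries, and so overlapped between sides.

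**Figure D5:**
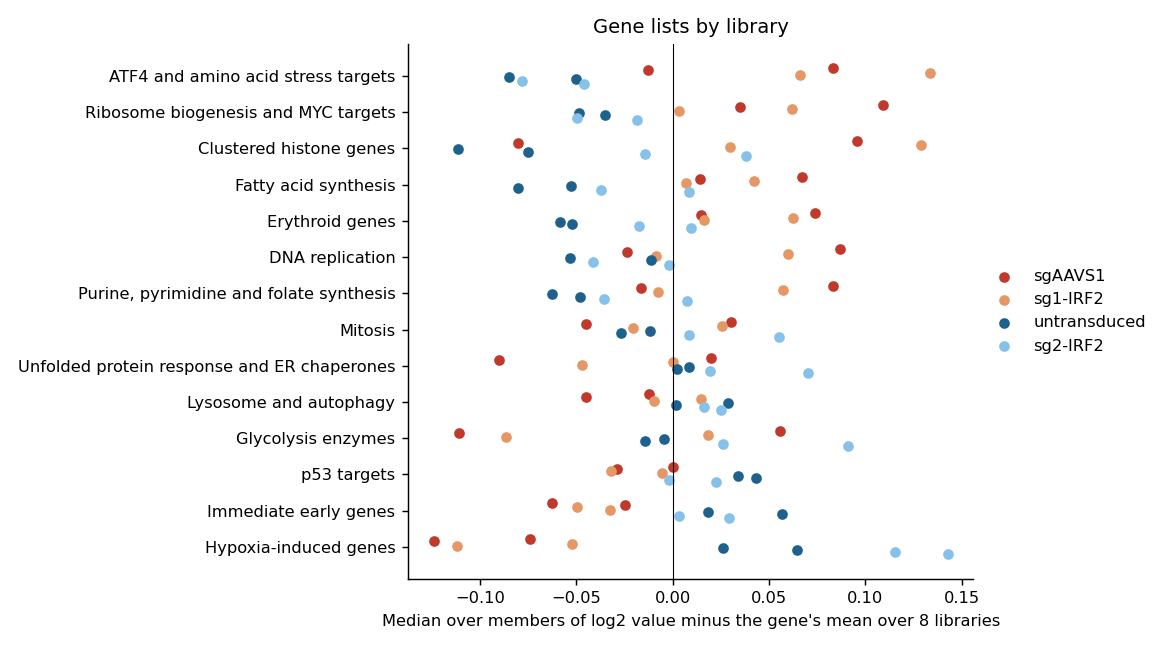
Median over the members of each list of log2 value minus the gene's mean (x axis), 1 point a library, coloured by group. ATF4 targets and ribosome biogenesis lie higher and hypoxia-induced genes and immediate early genes lower in the sgAAVS1 and sg1-IRF2 libraries without overlap, while mitosis and glycolysis medians overlap.

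Immediate early genes, which respond to serum and growth factors within minutes, were lower with sgAAVS1 and sg1-IRF2 for a subset. Of 25 tested 6 were lower without overlap and 0 higher, against 7.14% and 7.36% of all genes, with a median of -0.08. On unaligned values 4 were lower and 4 higher, and the median was -0.014. DUSP5 and DUSP1, phosphatases that switch off MAP kinases, differed by -0.49 ± 0.08 and -0.34 ± 0.05. JUN had 7.64 and 7.59 with sgAAVS1 and 7.68 and 7.65 with sg1-IRF2, against 7.85 and 7.90 in untransduced cells and 7.80 and 7.84 with sg2-IRF2, so the sides were apart by -0.21 ± 0.03. NR4A1, an orphan nuclear receptor, differed by -0.35 ± 0.08 and FOSL2, a partner of JUN, by -0.25 ± 0.06, while IER2 and JUND overlapped. Targets of p53 were mixed. BBC3, a pro-apoptotic gene, differed by -0.28 ± 0.05 and DDB2, a DNA damage sensor, by -0.20 ± 0.05. BAX, another pro-apoptotic gene, differed by 0.13 ± 0.06, and MDM2 overlapped. Without overlap 5 of 17 were lower and 2 higher (0 and 3 on unaligned values), against 7.14% and 7.36% of all genes. K562 is known to lack functional p53.

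Endoplasmic reticulum stress genes did not accompany the ATF4 targets. Of 24 unfolded protein response genes and ER chaperones 0 were higher without overlap and 5 lower (1 and 2 on unaligned values), with a median of -0.04, turning to 0.026 without alignment of medians. DNAJB9 and DNAJC3, ER co-chaperones, differed by -0.21 ± 0.04 and -0.15 ± 0.04. CRELD1, an ER-resident factor, had 6.02 and 5.98 with sgAAVS1 and 5.96 and 5.94 with sg1-IRF2, against 6.25 and 6.23 in untransduced cells and 6.26 and 6.33 with sg2-IRF2, a difference of -0.29 ± 0.04. The abundant chaperones HSP90B1, CANX and HYOU1 overlapped. Heat shock genes had a median of 0.05, with 1 of 20 higher without overlap.

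Erythroid genes were slightly higher with sgAAVS1 and sg1-IRF2, with 7 of 28 higher without overlap and 0 lower (13 and 0 on unaligned values), and a median of 0.08. The list summed to 2.91e+03 to 3.02e+03 reads per 1000000 reads over listed genes with sgAAVS1 and sg1-IRF2 and to 2.83e+03 to 2.88e+03 in the untransduced and sg2-IRF2 libraries, without overlap, and its members BCL11A and CA2 had no reads. CA1, an erythroid carbonic anhydrase, had 3.79 and 4.01 with sgAAVS1 and 3.87 and 3.92 with sg1-IRF2, against 2.93 and 2.65 in untransduced cells and 3.33 and 3.68 with sg2-IRF2, a difference of 0.75 ± 0.12 that was 1.11 in the control pair and 0.39 in the guide pair. LMO2, an adaptor of the erythroid transcription complex, differed by 0.14 ± 0.04 and HEMGN, a haematopoietic nuclear protein, by 0.11 ± 0.03. Among globins, HBM differed by 0.62 ± 0.15 and the embryonic HBZ by 0.25 ± 0.07, while HBG2, HBG1 and HBE1 overlapped, at 0.05, 0.05 and 0.06. HBG1 and HBG2 are near-identical and their counts may be split. Haem synthesis was mixed, with a median of 0.02. ALAS1, the housekeeping form of its first enzyme, differed by -0.17 ± 0.05, ALAD, the second enzyme, by -0.19 ± 0.06 and CPOX, a later one, by -0.17 ± 0.04, with 4 of 14 lower and 0 higher without overlap. On unaligned values the median was 0.089, with 2 lower and 5 higher.

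Among markers of other lineages, the megakaryocyte list was also higher in summed level with sgAAVS1 and sg1-IRF2, and the other lists overlapped between the sides. As reads per 1000000 reads over listed genes, the megakaryocyte list summed to 416 to 424 with sgAAVS1 and sg1-IRF2 and 369 to 403 in the untransduced and sg2-IRF2 libraries, without overlap, and 8 of its 18 genes had no reads. Its members were mixed, with 2 of 10 tested higher and 1 lower without overlap. With 1 library left out, the list median ran over 0.056 to 0.11. RUNX1, a transcription factor of blood lineages, differed by 0.22 ± 0.03, GP6 by 0.31 ± 0.08 and CD9, a tetraspanin, by -0.83 ± 0.17. Myeloid genes summed to 301 to 316 with sgAAVS1 and sg1-IRF2 and 295 to 306 in the untransduced and sg2-IRF2 libraries. Lymphoid genes summed to 131 to 144 and 142 to 149 on the same sides, and adherent line genes to 847 to 937 and 881 to 917. The part of these markers in the split was not tested.

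Among lipid and mitochondrial programmes, fatty acid synthesis had the highest median, at 0.08, with 4 of 15 higher without overlap and 0 lower (11 and 0 on unaligned values), among them the desaturases FADS1 at 0.17 ± 0.04 and FADS2 at 0.17 ± 0.04, which the annotation places on opposite strands at overlapping positions. In cholesterol synthesis 3 of 26 were higher and 1 lower without overlap, against 7.36% and 7.14% of all genes. DHCR7, a late enzyme of the pathway, differed by 0.17 ± 0.04, while SREBF2, a transcription factor of sterol synthesis, overlapped. In the TCA cycle 2 of 23 were higher and 1 lower, close to the shares of all genes. OGDH, a rate-controlling dehydrogenase, was at 0.15 ± 0.03. Nuclear subunits of oxidative phosphorylation had a median of 0.00, with 4 of 77 higher and 1 lower, and none of the 13 mitochondrially encoded mRNAs was without overlap. The lysosome and autophagy list had a median of -0.04, turning to 0.024 without alignment of medians, with GABARAPL1, an autophagosome protein, at -0.29 ± 0.06 and TFE3, a regulator of lysosomal genes, at -0.15 ± 0.03. In the cytoskeleton list the tropomyosins TPM1, TPM2 and TPM4 were at -0.30 ± 0.04, -0.28 ± 0.09 and -0.14 ± 0.03, with 4 of 26 lower and 1 higher. GCLC, the first enzyme of glutathione synthesis, differed by -0.20 ± 0.05, while of 20 oxidative stress and NRF2 targets 2 were higher and 1 lower without overlap.

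Interferon-stimulated genes were lower with the IRF2 guides, where 21 of 27 tested were called lower and 1 higher, against 1.08% and 0.341% of all genes. That such genes overlap between the sides follows largely from the design. EIF2AK2, the kinase PKR, had 7.65 and 7.74 with sgAAVS1 and 6.63 and 6.83 with sg1-IRF2, against 7.67 and 7.63 in untransduced cells and 6.71 and 6.78 with sg2-IRF2, low with both IRF2 guides (-0.94, adjusted p = 9.38e-12, limma), and its split difference was 0.02 ± 0.04. The list of metallothioneins, which bind and buffer metals, and metal response genes had a median of -0.41 across the split. That median was -0.13 among members with a mean log2 of at least 2. All 8 tested genes overlapped between the sides, and 5 were called lower with IRF2 guides, against 1.08% of all genes. The low genes MT1E and MT1G differed by -0.10 and -0.56 in the control pair and by -2.5 and -3.1 in the guide pair. MT1X had 4.20 and 4.37 with sgAAVS1 and 2.44 and 2.75 with sg1-IRF2, against 4.84 and 4.79 in untransduced cells and 4.44 and 4.35 with sg2-IRF2, lowest with sg1-IRF2. Of 427 zinc finger genes 37 (8.67%) were higher and 12 (2.81%) lower without overlap across the split, against 7.36% and 7.14% of all genes.

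Genes without overlap differed in base composition. The median GC content of exons was 50.7% among the 1079 higher genes, 45.6% among the 1047 lower genes and 48.5% over all tested genes. Median exonic length was 5000, 5622 and 4451 bases in the same sets. Sense intronic RNAs had a median split difference of -0.13 over 221 genes and antisense RNAs 0.05 over 720. Sense intronic RNAs took 0.102% to 0.109% of reads in the sgAAVS1 and sg1-IRF2 libraries and 0.105% to 0.113% in the untransduced and sg2-IRF2 libraries. The part of GC content in the split was not tested. The strand setting of the counting is not given in the sources used here, so reads of a gene and of an overlapping gene on the other strand cannot be told apart. The annotation has such a partner for 6994 of the 14665 genes tested (47.7%), among them SLC6A9, G0S2, ATF5, MAFF, PNCK, SLC7A5, DDIT3, VEGFA, CA9, EGLN3, MXI1, BNIP3, BNIP3L, P4HA1, PFAS, DNAJB9, LMO2 and RUNX1.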

How the data were processed

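RNA of 8 libraries was measured by sequencing after depletion of ribosomal RNA, with directional libraries, per the labels' protocols. Cutadapt, Bowtie2 and hg38 are named, per the submitters' processing notes. Their versions, the read counter, its strand setting and the annotation are not given here. The authors deposited log2 values, each the reads of a gene over a factor per library. Every value above a column's minimum was a whole multiple of 1 read (100% of values, tolerance 0.01 read). Genes without reads are listed at 0.9 read, so reads could be recovered. Values after ± are standard errors of the limma fit, from the spread between libraries.

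Library medians over 14665 genes were aligned, and 4 group means were fitted in limma 3.58.1 (R 4.3.3, eBayes with trend, residual degrees of freedom 4, prior 14.91). Tests were two-sided. The deposited unit is log2, so the planned count tests were not run. The fit was tested on simulated data. The table was matched to GENCODE 29 for 98.2% of genes tested. Members, lists and alternatives were chosen with earlier results of these data known. Named genes were the 12 highest and 12 lowest without overlap by the smaller pair difference at a mean log2 of at least 4; in each list up to 5 without overlap and 3 abundant overlapping members at a mean log2 of at least 2; the 8 called pair-difference genes of lowest p; IRF2; other members named were picked after their values were seen. The 38 lists are summarised by counts and medians. Alternatives were other scalings, filters, sizes, variance models and leaving out each library.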

Additional observations from a re-analysis of the deposited data

Results flagged for a closer look

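The control pair and the guide pair differed in 19 genes (0.13% of those tested, limma, adjusted p under 0.05), 13 with a higher and 6 with a lower difference in the guide pair. At an unadjusted p under 0.05 the count was 888. In 15 of the 19 the difference was larger in size in the control pair and in 4 in the guide pair, and 17 of the 19 were also called for IRF2 guides against both controls. Differences below are the guide pair minus the control pair on the log2 scale, with SE.

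RAB11FIP5, a Rab11 effector of endosome recycling, had 3.94 and 4.14 with sgAAVS1 and 6.26 and 6.07 with sg1-IRF2, against 6.16 and 6.29 in untransduced cells and 6.41 and 6.26 with sg2-IRF2. It was low in both sgAAVS1 libraries and in no other, a difference of 2.01 ± 0.12 (adjusted p = 1.19e-08, limma). SNCG, gamma-synuclein, had 2.62 and 2.51 with sgAAVS1 and 5.07 and 5.06 with sg1-IRF2, against 4.89 and 5.07 in untransduced cells and 5.18 and 5.13 with sg2-IRF2, again low with sgAAVS1 alone, at 2.33 ± 0.15 (adjusted p = 3.5e-08, limma). DBNDD2 differed by 1.51 ± 0.11, and the readthrough gene SYS1-DBNDD2, which shares its exons and is not independent of it, by 1.35 ± 0.12. SNX33, a sorting nexin, differed by 0.76 ± 0.09, ZNF584 by 0.83 ± 0.10 and PNCK by 0.93 ± 0.11. PPP1R12C, which holds the site of the sgAAVS1 guide, differed by 0.80 ± 0.09. IRF2 differed by -1.80 ± 0.30, with sg1-IRF2 below sg2-IRF2.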

How the results depend on the processing

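Quantile normalization and TMM factors on recovered reads each moved 0 of 38 list medians by more than the spread between replicates. Leaving the medians of libraries unaligned raised the median of all genes tested to 0.072 and gave list medians of 0.21 (ATF4 and amino acid stress targets), 0.16 (ribosome biogenesis and MYC targets), 0.15 (fatty acid synthesis), 0.15 (megakaryocyte genes), 0.15 (erythroid genes), 0.14 (DNA replication), 0.14 (purine, pyrimidine and folate synthesis), 0.11 (cytosolic aminoacyl-tRNA synthetases), 0.093 (zinc finger genes), 0.089 (haem synthesis), 0.085 (mitochondrial ribosomal protein genes), 0.082 (TCA cycle), 0.079 (cholesterol synthesis), 0.074 (proteasome subunits), 0.074 (oxidative stress and NRF2 targets), 0.070 (myeloid genes), 0.058 (BCR-ABL1 and STAT5 targets), 0.056 (mitosis), 0.048 (cytoskeleton and SRF targets), 0.043 (adherent epithelial and mesenchymal line genes), 0.032 (iron uptake and storage), 0.028 (small nucleolar RNA host genes), 0.026 (unfolded protein response and ER chaperones), 0.024 (lysosome and autophagy), 0.016 (lymphoid genes), -0.0078 (p53 targets), -0.014 (immediate early genes), -0.11 (hypoxia-induced genes), -0.34 (metallothioneins and metal response). In 13 of 38 lists the sign then differed from that reported, and among these lymphoid, and lysosome and autophagy genes had been beyond their replicate spread. Taking each list median less that of all genes tested was added after these values were seen. On that scale 38 of 38 lists stayed within their replicate spread without alignment, and 2 lists near 0 (myeloid, and nuclear oxidative phosphorylation genes) changed sign. The text gives the medians as planned. Tallies without overlap on unaligned values were 8 higher and 0 lower for cholesterol synthesis, 8 and 0 for the TCA cycle and proteasome subunits, 9 and 0 for clustered histone genes, 7 and 0 for tRNA synthetases, 18 and 1 for mitochondrial ribosomal proteins, 69 and 5 for zinc finger genes, 5 and 1 for the cytoskeleton, 7 and 0 for mitosis, and 1 and 1 for small nucleolar RNA host genes. All 24 leading genes were without overlap under each of the other scalings.

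The counts of 79 higher and 89 lower genes were 29 and 44 at a mean log2 of at least 2, 144 and 137 at -2, 179 and 203 at a size of 0.3, 10 and 9 at a size of 1, and 262 and 276 with overlap allowed. Without alignment the lower count was 56. Leaving out 1 library gave 87 to 138 higher and 113 to 138 lower genes, the highest counts without sgAAVS1 replicate 1 for higher and without sgAAVS1 replicate 2 for lower genes, since a side of fewer libraries overlaps less often. Leave-one-out medians ran over -0.008 to 0.038 for haem synthesis, which was negative without sgAAVS1 replicate 1, -0.096 to -0.056 for immediate early genes and -0.077 to -0.034 for p53 targets. The metallothionein median was -0.13 at a mean log2 of at least 2.

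The 19 genes whose pairs differed were 30 without alignment, 6 without the mean-variance trend and 9 to 120 with 1 library left out, with 120 without sgAAVS1 replicate 2, 39 without sgAAVS1 replicate 1, 12 without untransduced replicate 1 and 9 without untransduced replicate 2. The 209 genes of the IRF2 comparison were 79 without the trend and 133 to 477 with 1 library left out, highest without sgAAVS1 replicate 1. The cause was not tested. PPP1R12C (adjusted p = 0.331), SNX33 (0.331) and ZNF584 (0.0994) lost their call without the trend (limma). With voom weights, added after seeing the data, the counts were 19 and 220. The labels do not say that replicate numbers pair the libraries, and deviations of the same number correlated at 0.37 between sgAAVS1 and sg1-IRF2 and at -0.17 to 0.041 between the other groups. With the replicate block the counts were 21 (14 higher, 7 lower) and 220 (57 higher, 163 lower). Of the single genes named, 400 values under an alternative stayed within their error or on their side of the threshold, 34 moved by more than their SE and none turned its sign. The planned count-based tests were not run, since the deposited unit is log2. The larger differences lie mostly in genes of few reads.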

Other observations

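Housekeeping lists outside the programmes above stayed close to the median of all genes. Small nucleolar RNA host genes were lower without overlap in 3 of 16, led by SNHG22 at -0.31 ± 0.10 and SNHG11 at -0.27 ± 0.07, with a median of -0.04. NEAT1, the scaffold RNA of paraspeckles, had 10.06 and 9.81 with sgAAVS1 and 9.93 and 9.82 with sg1-IRF2, against 10.11 and 9.98 in untransduced cells and 10.21 and 10.20 with sg2-IRF2, which overlapped, and TUG1 was higher without overlap by 0.13 ± 0.03. Of 35 proteasome subunits 2 were higher without overlap and 0 lower, PSMD12 at 0.11 ± 0.03 and PSMD11 at 0.05 ± 0.03. That tally depended on the scaling, with 1 higher and 4 lower after quantile normalization and 2 and 3 with TMM factors. Of 77 mitochondrial ribosomal protein genes 5 were higher and 2 lower, against 7.36% and 7.14% of all genes. Iron genes had SLC11A2, an iron importer, lower by -0.18 ± 0.04, while TFRC, the transferrin receptor, overlapped at -0.06. Among targets of BCR-ABL1 and STAT5 signalling 4 of 14 were higher without overlap and 0 lower, against 7.36% and 7.14% of all genes. The list as a whole was balanced, with a median of -0.017 to -0.0009 when 1 library was left out. ID1 led at 0.25 ± 0.07, while PIM1 and CISH overlapped, at 0.00 and -0.03. BCL6 and SOCS1 were at -0.23 ± 0.04 and -0.19 ± 0.07, also with overlap.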
